A study of Mus musculus with 2 samples.

Results

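The respiratory chain genes were taken as every gene in the files whose symbol begins with mt-, Nduf, Uqcr, Cox4 to Cox8 or Atp5, together with Sdha, Sdhb, Sdhc and Sdhd. The rule used symbols and no measured value, and it found 102 of the 19073 genes. Of these, 13 are coded by the mitochondrial genome and 89 by the nucleus. The 13 mitochondrial-coded members comprise 7 subunits of complex I, 1 of complex III, 3 of complex IV and 2 of complex V. The nuclear-coded members comprise 46 of complex I, 4 of complex II, 8 of complex III, 18 of complex IV and 13 of complex V. The complex I group was set by symbol and includes Ndufa4, which is found in complex IV. It also includes 8 Ndufaf genes, which code for assembly factors rather than subunits.

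The 2 libraries held hepatocytes of male p16-Tom mice, which carry p16-CreERT2 and a tdTomato reporter behind a stop cassette on a C57BL/6 background. Both libraries came from mice given CCl4 for 4 weeks and tamoxifen, so injury and tamoxifen were shared by both groups and no vehicle-treated mice entered here. Tamoxifen lets the Cre, driven by p16, switch on tdTomato for good, so Tom+ marks cells in which p16 was active at that time rather than p16 at the time of the sort. Nuclei were stained with Hoechst and mitochondria with MitoBrilliant 646, and cells positive for both dyes were sorted into Tom- and Tom+, so that cells with little mitochondrial dye were not collected. Age and the number of mice behind each library were not given in the sources used here. With 1 library per group there was no replicate check and no test between the groups, and all intervals below are 95% intervals that cover counting error only.

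The respiratory chain passes electrons from NADH through complex I, or from succinate through complex II, to complex III and on to complex IV, which reduces oxygen. Complexes I, III and IV pump protons out of the mitochondrial matrix, and complex V, the ATP synthase, uses their return to make ATP. The mitochondrial genome codes for core subunits of complexes I, III, IV and V, and all of complex II and most other subunits come from nuclear genes. Hepatocytes are rich in mitochondria, and oxygen falls along the lobule from the portal tract to the central vein. The respiratory chain is also a main source of mitochondrial reactive oxygen species, a readout of interest in Tom+ cells in the study.

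RNA was captured with a pair of probes per target in fixed cells, and a unique molecular identifier (UMI) counted each captured molecule. Levels are given as CPM, the UMIs of a gene per 1000000 UMIs of the same cells, or as percent of all UMIs. Capture differs between probes, so a difference in level between genes need not be a difference in RNA. Single members were therefore compared within a gene, and sums over members weight each one by its captured UMIs. Of 20159 Tom- and 13378 Tom+ profiles that passed the filters, 10835 and 10362 were kept as hepatocytes, with medians of 32455 and 35306 UMIs. The 6 hepatocyte marker genes summed to 144772 CPM in Tom- and 138329 CPM in Tom+ hepatocytes, and tdTomato stood at 72.2 and 808 CPM. Marker sums of other cells were low in both libraries, at 56.3 and 44.9 CPM for endothelial, 51.9 and 57.8 CPM for stellate and 52.2 and 49.0 CPM for immune markers. The libraries shared 503 barcodes, of which 147 belonged to a hepatocyte in both.

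Hepatocytes were placed in 5 layers by a score from central and portal marker genes, with layer 1 the most portal and layer 5 the most central. A layer is a range of the score and not a cell type, and 3011 of the 21197 hepatocytes lay within 0.02 of the boundary between layers 1 and 2. Tom+ cells were placed more centrally, with 3090 cells in layer 5 and 967 in layer 1, against 1103 and 3322 Tom- cells. The comparison of Tom+ with Tom- therefore used the mean over the 5 layers, each with equal weight. A gene was called higher or lower when it differed by at least 1.25-fold, held at least 10 CPM in either group and had at least 20 UMIs.

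The comparison of the libraries asked whether respiratory chain RNA differs between hepatocytes that the labels call p16high, or Tom+, and p16low, or Tom-. Mitochondrial-coded RNA took a larger share of the UMIs in Tom+ cells, and nuclear-coded RNA nearly the same share. As the mean over layers, the 13 mitochondrial-coded members made up 1.32% of UMIs in Tom- and 1.54% in Tom+ hepatocytes, a log2 ratio of 0.22 (0.21 to 0.22). The 89 nuclear-coded members made up 1.06% and 1.09%, a log2 ratio of 0.036 (0.033 to 0.038). The Tom+ share of mitochondrial-coded UMIs was above the Tom- share in all 5 layers. In layer 1 it was 1.28% in Tom- and 1.52% in Tom+, in layer 3 it was 1.19% and 1.45%, and in layer 5 it was 1.58% and 1.73%. The share of all layers rested on 391117799 Tom- and 411731904 Tom+ UMIs, so the counting error was small beside these differences.

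**Figure D1:**
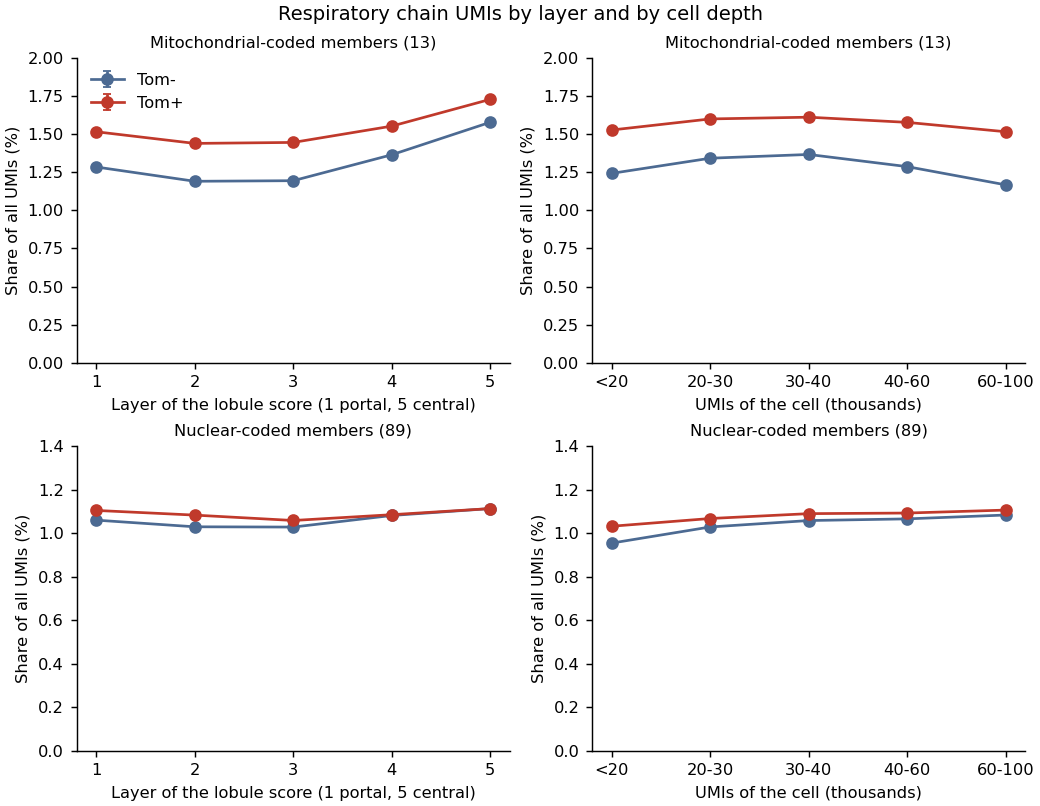
Share of all UMIs (%) of hepatocytes held by the 13 mitochondrial-coded members (top) and the 89 nuclear-coded members (bottom), by layer of the lobule score (left) and by UMIs of the cell (right), in Tom- (blue) and Tom+ (red), with 95% counting intervals that are mostly smaller than the points. The mitochondrial-coded share was lowest in layers 2 and 3, at 1.19% in Tom-, and highest in layer 5, at 1.58% in Tom- and 1.73% in Tom+.

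The difference was uneven across complexes. The 2 mitochondrial-coded subunits of complex V differed most, at 1409 CPM in Tom- and 2064 CPM in Tom+ and a log2 ratio of 0.55. The 3 subunits of complex IV stood at 5004 and 6154 CPM, a log2 ratio of 0.30, and the 7 of complex I at 6169 and 6513 CPM, a log2 ratio of 0.078. These sums weight each member by its level, so mt-Nd6 made up most of complex I and mt-Co2 most of complex IV. The median mitochondrial-coded member had a log2 ratio of 0.14 in complex I, 0.25 in complex IV and 0.53 in complex V. The complex III subunit stood at 648 and 638 CPM, a log2 ratio of -0.023. Among the nuclear-coded groups the log2 ratios were smaller, at 0.043 for complex I, 0.066 for complex II, 0.039 for complex III, 0.0036 for complex IV and 0.018 for complex V. The interval for nuclear-coded complex IV ran from -0.0020 to 0.0092 and included 0.

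Member by member, 16 of the 90 members tested were called higher in Tom+ and 0 lower. Over all 7820 genes tested, 2.02% were called higher and 0.307% lower. All 16 were above their Tom- level in each of the 5 layers, but they were chosen by the mean over these same layers. Of the 90 members tested, 44 had a log2 ratio above 0 in all 5 layers and 23 in none. The matching shares over all genes were not counted, so these 2 counts only describe the members. On the mean over layers, 55 of the 90 members, or 61.1%, were above 0, against 47.4% of all genes tested. The median log2 ratio was 0.051 over the members tested and -0.0076 over all genes tested. The remaining 12 members did not reach the minimum level, and are described with the isoforms below or by their counts. The called members comprised 4 of 13 mitochondrial-coded members, 7 of 42 nuclear-coded members of complex I, 0 of 4 of complex II, 0 of 8 of complex III, 3 of 11 of complex IV and 2 of 12 of complex V. None of the 6 assembly factors tested was called.

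**Figure D2:**
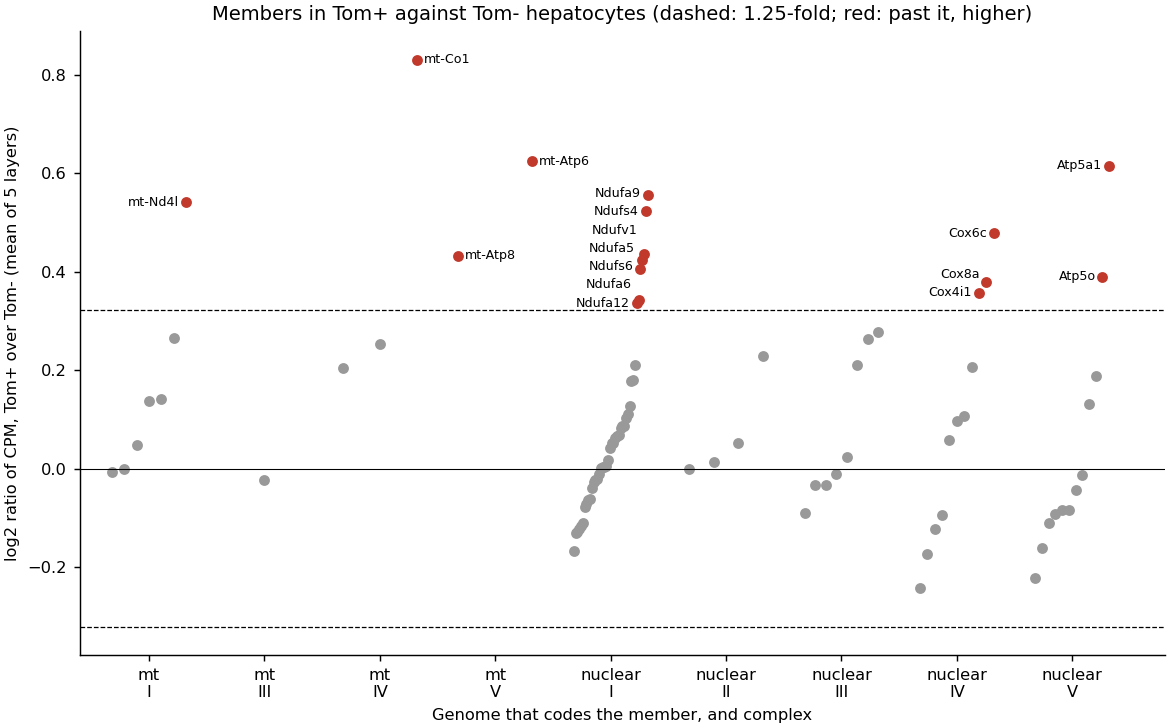
log2 ratio of CPM in Tom+ over Tom- hepatocytes (vertical axis, mean of 5 layers) for the 90 members tested, by coding genome and complex (horizontal axis), with red points and names for the 16 called higher and dashed lines at 1.25-fold. The called members stood apart within their complexes, from mt-Co1 at 0.83 down to Ndufa12 and Ndufa6 at 0.34, and 0 members were past the lower line.

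Of the mitochondrial-coded members, mt-Co1, a core subunit of complex IV that holds its catalytic centre, stood at 525 CPM in Tom- and 933 CPM in Tom+ and had the largest log2 ratio, 0.83 ± 0.0086 (95% counting interval). Its partners in the same complex differed less. mt-Co2 stood at 2999 and 3456 CPM, a log2 ratio of 0.20, and mt-Co3 at 1480 and 1764 CPM, a log2 ratio of 0.25. mt-Atp6, which forms the proton channel of the ATP synthase, stood at 850 and 1310 CPM, a log2 ratio of 0.62. mt-Atp8, its small neighbour in the same complex, stood at 559 and 754 CPM, a log2 ratio of 0.43. mt-Nd4l, a membrane subunit of complex I, stood at 217 and 316 CPM, a log2 ratio of 0.54.

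The other mitochondrial-coded members were not called. mt-Nd1 stood at 524 and 578 CPM, mt-Nd3 at 162 and 179 CPM, and mt-Nd4 at 134 and 161 CPM. mt-Nd2 stood at 364 and 362 CPM, mt-Nd5 at 416 and 416 CPM, and mt-Cytb, the only mitochondrial-coded subunit of complex III, at 648 and 638 CPM. mt-Nd6, the one member read from the other strand of the mitochondrial genome, stood at 4351 and 4500 CPM, a log2 ratio of 0.049.

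These ratios separated genes that lie on the same messenger RNA. In the mitochondrial genome mt-Atp8 and mt-Atp6 overlap by 43 bases (chrM:7927-7969, plus strand, GRCm38, GENCODE annotation), and mt-Nd4l and mt-Nd4 overlap by 7 bases (chrM:10167-10173, plus strand). Each pair is known to be read from a single bicistronic RNA, so the probes of a pair target different stretches of that RNA. The ends that meet are shown 5′ to 3′ with the shared bases in capitals, as they set which genes can come from one molecule.
mt-Atp8, end: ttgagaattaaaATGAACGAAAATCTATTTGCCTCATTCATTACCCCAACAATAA
mt-Atp6, start: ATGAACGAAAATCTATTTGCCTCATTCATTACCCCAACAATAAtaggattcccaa
mt-Nd4l, end: caacctactacaATGCTAA
mt-Nd4, start: ATGCTAAaaattattcttc
Within the first pair the log2 ratio of Tom+ over Tom- was 0.43 for mt-Atp8 and 0.62 for mt-Atp6. Within the second pair it was 0.54 for mt-Nd4l and 0.27 for mt-Nd4. Genes of 1 RNA, read through different probes, thus differed by more than their counting intervals, of at most 0.018 to either side. The part of the probes in these differences was not tested.

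Among the nuclear-coded members of complex I, the largest ratio belonged to Ndufa9, a subunit of the peripheral arm, at 12.3 CPM in Tom- and 18.1 CPM in Tom+ and a log2 ratio of 0.56 ± 0.058. Ndufs4, a peripheral arm subunit needed for a stable complex, stood at 34.4 and 49.4 CPM, a log2 ratio of 0.52. Ndufv1, which binds NADH, stood at 112 and 152 CPM, a log2 ratio of 0.44. Ndufa5, Ndufs6, Ndufa6 and Ndufa12 were called as well, with log2 ratios of 0.42, 0.41, 0.34 and 0.34. At the other end, Ndufb11 stood at 62.0 and 55.2 CPM, a log2 ratio of -0.17.

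In complexes II and III no member was called. Sdhb, the iron-sulfur subunit of succinate dehydrogenase, was highest of its complex, at 161 and 189 CPM and a log2 ratio of 0.23, and Sdhd, a membrane anchor, was lowest, at 163 and 163 CPM. In complex III, Uqcrb stood at 27.0 and 32.7 CPM, a log2 ratio of 0.28, and the core protein Uqcrc1 at 356 and 334 CPM, a log2 ratio of -0.091. Uqcr11, Uqcr10 and Uqcrh, small subunits of the same complex, had log2 ratios of 0.26, -0.033 and 0.023.

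In complex IV, Cox6c stood at 25.7 CPM in Tom- and 35.8 CPM in Tom+, a log2 ratio of 0.48. Cox8a stood at 112 and 145 CPM and Cox4i1, the main form of subunit 4 in the liver, at 61.4 and 78.7 CPM, with log2 ratios of 0.38 and 0.36. Cox7c stood at 270 and 229 CPM, a log2 ratio of -0.24, and Cox5a at 133 and 118 CPM, a log2 ratio of -0.17. In complex V, Atp5a1, the alpha subunit of the catalytic head, stood at 24.2 and 37.0 CPM, a log2 ratio of 0.62 ± 0.041. Atp5o, a subunit of the stalk, stood at 145 and 190 CPM, a log2 ratio of 0.39. Atp5b, the beta subunit that alternates with alpha in the same head, stood at 130 and 122 CPM, a log2 ratio of -0.093. Atp5j2 was lowest, at 125 and 107 CPM and a log2 ratio of -0.22. Subunits of one enzyme thus lay on both sides of 0.

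The difference between the libraries depended on the depth of the cells compared. Cells were placed in 5 bins of total UMIs, bounded at 20000, 30000, 40000 and 60000, and the libraries were compared within each bin as the mean over layers. In cells under 20000 UMIs, 2 of 90 members were called higher and 0 lower, where 1.12% of all genes were called higher and 0.898% lower. From 20000 to 30000 UMIs, 5 of 90 were called higher, against 1.08% of all genes. From 30000 to 40000 UMIs, 12 of 90 were called higher, against 2.5% of all genes. From 40000 to 60000 UMIs, 18 of 90 were called higher, against 7.12% of all genes. At 60000 UMIs and more, 25 of 91 were called higher and 1, Atp5j2, lower, against 11% and 1.39% of all genes. The count of members rose with each bin, and the share of all genes rose over the 3 deepest bins. Cells were also thinned to 5000 UMIs each, which left out 35 Tom- and 41 Tom+ cells below that depth. This gives cells equal weight and leaves CPM differences between shallow and deep cells in place. After thinning, 10 members were called over all depths, all of them among the 16. Of all genes, 1.81% were then called in either direction.

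The 16 members called over all depths were chosen by this ratio, and their course is a description of them alone. Their median log2 ratio was 0.19 in the shallowest bin (0.023 to 0.59), 0.39 in the middle bin and 0.87 in the deepest bin (0.67 to 1.34). Over all members tested the median went the other way, from 0.093 in the shallowest bin to 0.026 in the middle and 0.019 in the deepest. mt-Co1 went from 0.59 in the shallowest to 1.34 in the deepest bin, mt-Atp6 from 0.34 to 1.15, and mt-Nd4l from 0.22 to 1.09. Atp5a1 went from 0.17 to 1.15, and Cox6c and Ndufa9 both from 0.097 to 0.95. mt-Cytb, by contrast, stood at 0.089 in the shallowest and -0.057 in the deepest bin, and Cox5a at -0.073 and -0.29. As a sum, mitochondrial-coded RNA was higher in Tom+ in all 25 combinations of layer and depth bin, with log2 ratios from 0.11 to 0.40 and a median of 0.21. Nuclear-coded RNA was higher in 18 of the 25, with log2 ratios from -0.023 to 0.091.

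The same genes showed different courses of UMIs per cell. Between the shallowest and the deepest bin the mean depth rose 5.06-fold in Tom- and 5.52-fold in Tom+. In Tom- cells, Atp5a1 stood at 0.713, 0.909, 0.926, 0.827 and 0.784 UMIs per cell from the shallowest to the deepest bin, so it did not follow depth. In Tom+ cells it stood at 0.771, 1.29, 1.66, 1.81 and 1.94 UMIs per cell, near the Tom- value in the shallowest bin and well above it in the deepest. mt-Co1 stood at 12.2, 18.4, 20.1, 18.9 and 17.8 UMIs per Tom- cell and at 19.0, 33.3, 41.1, 47.4 and 52.6 UMIs per Tom+ cell. Atp5b, by contrast, rose 7.89-fold, to 11.9 UMIs per Tom- cell, and 7.18-fold in Tom+. mt-Cytb rose 8.01-fold in Tom- and 7.31-fold in Tom+.

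**Figure D3:**
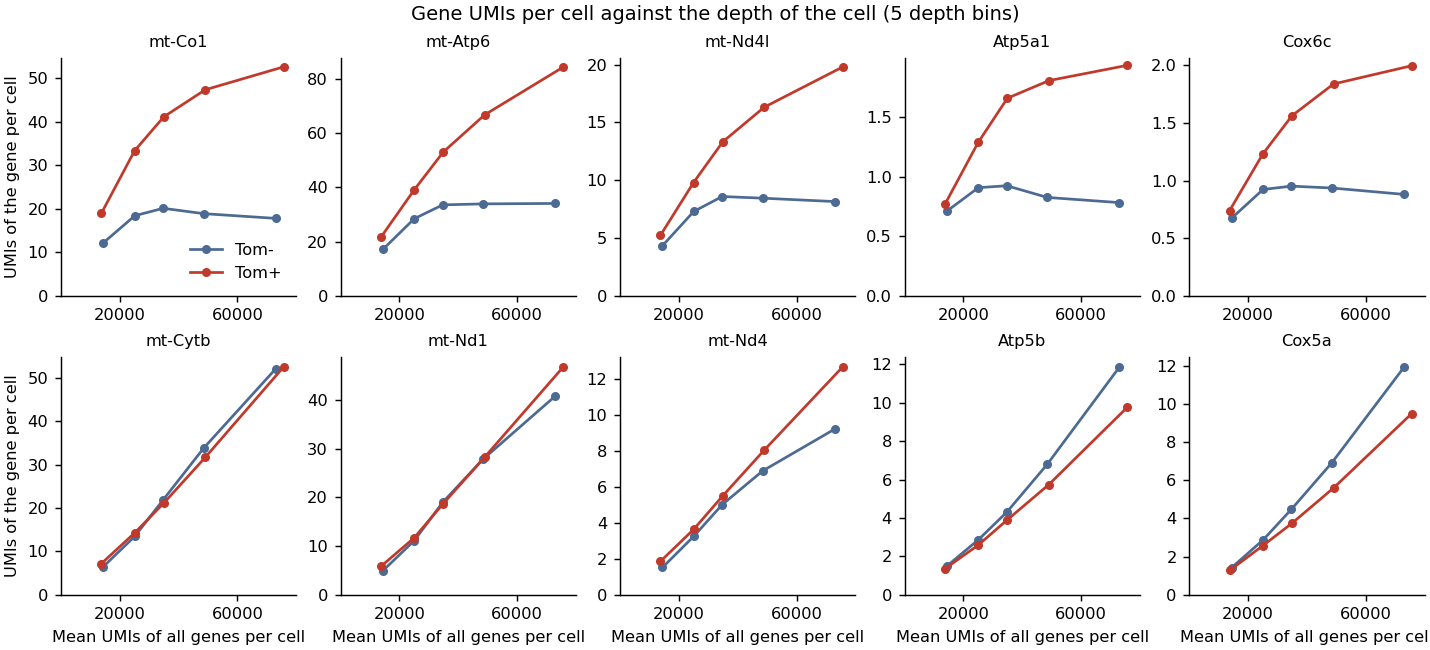
Mean UMIs of 10 members per cell (vertical axis) against the mean UMIs of all genes per cell in 5 depth bins (horizontal axis), in Tom- (blue) and Tom+ (red). In the top row counts levelled off in Tom- cells, as for Atp5a1 at 0.784 UMIs per cell in the deepest bin against 1.94 in Tom+, and in the bottom row they rose with depth in both libraries.

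Deep cells, of 60000 UMIs and more, were then compared with shallow cells, under 20000 UMIs, within each library as the mean over layers, with a call only where both libraries passed 1.25-fold in the same direction. Of 91 members tested, 14 were called higher in deep cells and 12 lower. Over all 7980 genes tested, 1.44% were called higher and 29.8% lower, and the median of all genes detected in both groups was -0.26 in Tom- and -0.24 in Tom+ on the log2 scale. The members' median was 0.17 and that of all genes tested -0.21. With levels relative to the median gene, 49 members were called higher and 6 lower, where 23.8% of all genes were called in either direction. The 14 and 12 members named here are on the plain CPM scale. Nuclear-coded RNA rose from 0.964% to 1.09% of UMIs in Tom- and from 1.01% to 1.11% in Tom+, log2 ratios of 0.18 and 0.13. Relative to the median gene these were 0.44 and 0.37, and with clusters of few genes kept they were 0.066 and 0.096.

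Mitochondrial-coded RNA as a sum stood at 1.28% in shallow and 1.21% in deep Tom- cells, and at 1.45% and 1.505% in Tom+ cells, so the libraries lay on opposite sides of 0, with log2 ratios of -0.072 and 0.052. Relative to the median gene both were positive, at 0.19 and 0.30. The sum held opposite parts. mt-Cytb stood at 458 CPM in shallow and 726 CPM in deep Tom- cells and at 488 and 697 CPM in Tom+ cells, log2 ratios of 0.66 and 0.52. mt-Nd1 stood at 346 and 568 CPM in Tom- and 409 and 637 CPM in Tom+, log2 ratios of 0.72 and 0.64, the highest mean of all members. mt-Co1 stood at 871 and 265 CPM in Tom- and at 1308 and 672 CPM in Tom+, log2 ratios of -1.72 and -0.96.

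The pairs on 1 RNA parted again. mt-Nd4l stood at 307 and 120 CPM in shallow and deep Tom- cells, a log2 ratio of -1.35, and mt-Nd4 at 106 and 127 CPM, a log2 ratio of 0.26. In Tom+ cells the log2 ratios were -0.48 and 0.40. mt-Atp6 had log2 ratios of -1.28 in Tom- and -0.47 in Tom+, and mt-Atp8 had -0.48 and 0.099.

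Among the nuclear-coded members, the 9 called lower in deep cells were Ndufa6, Ndufa9, Ndufs4, Ndufs6 and Ndufv1 of complex I, Uqcrb of complex III, Cox4i1 and Cox6c of complex IV, and Atp5a1 of complex V. Atp5a1 differed most, at 50.2 and 11.3 CPM in shallow and deep Tom- cells and 56.6 and 25.1 CPM in Tom+ cells, log2 ratios of -2.15 and -1.17. Cox6c stood at 47.7 and 13.3 CPM in Tom- and 51.0 and 25.6 CPM in Tom+, log2 ratios of -1.84 and -0.99. Ndufs6 had log2 ratios of -1.45 and -0.72, and Uqcrb of -0.63 and -0.35. Relative to the median gene these log2 ratios stayed negative.

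The 9 nuclear-coded members called higher in deep cells were Ndufa2, Ndufa4, Ndufa13 and Ndufb11 of complex I, Cox5a and Cox6b1 of complex IV, and Atp5b, Atp5e and Atp5j2 of complex V. Cox5a, a matrix-side subunit of complex IV, stood at 97.8 and 158 CPM in Tom- and 93.0 and 129 CPM in Tom+, log2 ratios of 0.69 and 0.47. Atp5j2 had log2 ratios of 0.74 and 0.43. No complex II member was called, and Sdhc, the highest of them, had log2 ratios of 0.32 and 0.23. In complex III, Uqcr10 had log2 ratios of 0.47 in Tom- and 0.28 in Tom+. The same members were read in profiles outside the hepatocyte set. Profiles under 2000 genes held mt-Co1 at 1498 CPM in Tom- and 1966 CPM in Tom+, and profiles above 100000 UMIs held it at 169 and 444 CPM. For Atp5a1 these were 51.5 and 50.1 CPM against 7.96 and 17.7 CPM. Profiles under 2000 genes were mixed with other cells, so they do not extend the hepatocyte bins. Their endothelial marker sums were 1066 CPM in Tom- and 1662 CPM in Tom+, and their stellate sums 1097 and 1529 CPM. Profiles above 100000 UMIs had endothelial sums of 172 and 140 CPM, against 56.3 and 44.9 CPM in the hepatocytes. The part that free RNA, cell size or probe behaviour played was not tested.

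Set beside each other, the 12 members called lower in deep cells had log2 ratios of Tom+ over Tom- from 0.28 to 0.83, and the 14 called higher in deep cells had ratios from -0.22 to 0.14. These comparisons rest on the same cells, so the order of one is no independent support for the other. Other-cell marker sums were compared between the shallowest and the deepest bin of all layers together. In Tom- cells they went from 56.9 to 63.8 CPM for endothelial, 52.6 to 55.0 CPM for stellate and 59.5 to 52.9 CPM for immune markers. In Tom+ cells they went from 50.4 to 47.6, 67.9 to 61.1 and 55.7 to 47.2 CPM. tdTomato fell with depth as well, from 124 to 39.1 CPM in Tom- and from 1023 to 597 CPM in Tom+ hepatocytes. Their part in the results was not tested.

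**Figure D4:**
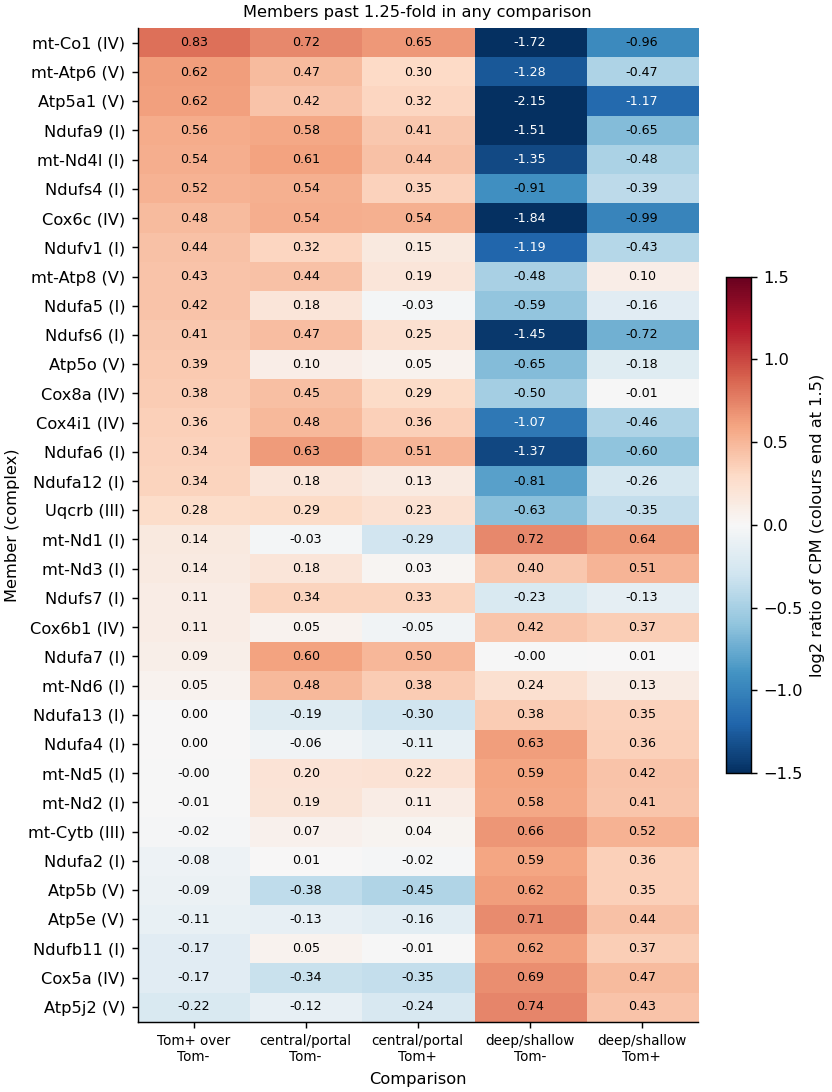
log2 ratio of CPM for the 34 members called in any comparison (rows, with the complex in brackets, ordered by Tom+ over Tom-) in the comparisons of the libraries, of the central with the portal layer and of deep with shallow cells, the latter pair in each library (columns), with red for higher and blue for lower and colours that end at 1.5. The members at the top, from mt-Co1 at 0.83 to Uqcrb at 0.28, were all lower in deep than in shallow Tom- cells.

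Along the lobule, the mitochondrial-coded share followed a shallow curve with its low point in layers 2 and 3 and its high point in layer 5. From layer 1 to layer 5 it went from 1.28% to 1.58% in Tom- and from 1.52% to 1.73% in Tom+, log2 ratios of 0.30 and 0.19. The nuclear-coded share went from 1.06% to 1.11% in Tom- and from 1.10% to 1.11% in Tom+, log2 ratios of 0.071 and 0.011. The median gene itself was higher in the central layer, by 0.18 in Tom- and 0.23 in Tom+ on the log2 scale. Relative to it, mitochondrial-coded RNA was at 0.11 in Tom- and -0.037 in Tom+, and nuclear-coded RNA was at -0.11 and -0.22, so the direction of the nuclear-coded sum turned with the scaling, as did that of the mitochondrial-coded sum in Tom+. The 6 hepatocyte genes fell from 149966 CPM in layer 1 to 114980 CPM in layer 5 of Tom-. Its part in the shift of the median gene was not tested.

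Of 90 members tested, 11 were called higher in the central layer in both libraries and 2 lower, against 24.5% and 8.38% of all 7926 genes tested, so both shares lay below those of all genes. With levels relative to the median gene the counts became 1 higher and 12 lower, where 26.3% of all genes were called in either direction. mt-Co1 was the member that stayed higher, at 455 CPM in layer 1 and 751 CPM in layer 5 of Tom- and 762 and 1194 CPM in Tom+, log2 ratios of 0.72 and 0.65. mt-Nd6 stood at 3689 and 5157 CPM in Tom- and 3919 and 5108 CPM in Tom+, log2 ratios of 0.48 and 0.38. mt-Nd1, of the same complex, stood at 614 and 601 CPM in Tom- and 737 and 602 CPM in Tom+, log2 ratios of -0.030 and -0.29. The mitochondrial-coded members thus had no common course along the lobule.

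Of the nuclear-coded members that passed the minimum level, Ndufa6, a small subunit of complex I, had the highest central ratio, with 129 and 200 CPM in Tom- and 163 and 231 CPM in Tom+, log2 ratios of 0.63 and 0.51. Ndufa7 had log2 ratios of 0.60 and 0.50, and Ndufa9, Ndufs4, Ndufs7, Cox4i1, Cox6c and Atp5a1 were called as well. Ndufa7 was nearly level between shallow and deep cells, with log2 ratios of -0.0011 in Tom- and 0.0083 in Tom+. The 2 members called lower centrally were Atp5b, with 149 and 115 CPM in Tom- and 146 and 107 CPM in Tom+, and Cox5a, with 147 and 116 CPM in Tom- and 134 and 105 CPM in Tom+. Their log2 ratios were -0.38 and -0.45 for Atp5b and -0.34 and -0.35 for Cox5a. Median UMIs per cell were 33393 in layer 1 and 28709 in layer 5 of Tom-, and 40974 and 33552 in Tom+, so the central cells were also the shallower ones. Compared within depth bins, 10 members were called higher centrally, of which 7 were among the 11, and 0 lower, so neither Cox5a nor Atp5b was called there. Of all genes, 29.9% were called there in either direction.

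Of the other members named here that passed the minimum level, Ndufa13 was the lowest of complex I, with log2 ratios of -0.19 in Tom- and -0.30 in Tom+. In complex III, Uqcr11 was highest, at 0.39 and 0.25, and Uqcrh lowest, at -0.22 and -0.24. In complex II, Sdha had log2 ratios of 0.015 and -0.0079, and Sdhb of -0.063 and -0.22.

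By complex, mitochondrial-coded RNA had central over portal log2 ratios on the plain CPM scale of 0.46 in Tom- and 0.26 in Tom+ for complex V, 0.38 and 0.27 for complex I, 0.18 and 0.10 for complex IV and 0.069 and 0.041 for complex III. Nuclear-coded RNA had 0.12 and 0.059 for complex I, -0.017 and -0.065 for complex II, -0.012 and -0.056 for complex III, 0.15 and 0.048 for complex IV and -0.081 and -0.13 for complex V. The complex I sum was mostly mt-Nd6, with 3689 of 5611 CPM in layer 1 and 5157 of 7307 CPM in layer 5 of Tom-, and 3919 of 6121 CPM and 5108 of 7376 CPM in Tom+. For complex V the mitochondrial-coded and nuclear-coded subunits thus lay on opposite sides of 0 on this scale. Relative to the median gene, the nuclear-coded ratios of all complexes and the mitochondrial-coded ratios of complexes III and IV were at or below 0 in both libraries.

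To see which members varied together, cells were ranked by mt-Co1 within each library, layer and depth bin and cut into 5 equal groups. The lowest group was set against the highest. Depth still varied within a bin, and mt-Co1 CPM fell with depth, so these groups may differ in depth. The part of depth in this comparison was not tested. This comparison was chosen after the values above were seen. mt-Co1 itself, which set the ranking, went from 244 to 1079 CPM between the lowest and highest group in Tom- and from 442 to 2053 CPM in Tom+. Of the other 89 members tested, 25 were called higher in the group with most mt-Co1 in both libraries and 0 lower, against 2.36% and 0.473% of 7826 genes. The other 12 mitochondrial-coded members summed to 10758 and 15026 CPM in Tom- and 11376 and 17718 CPM in Tom+, log2 ratios of 0.48 and 0.64. The nuclear-coded sum had log2 ratios of 0.087 and 0.15.

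Within depth bins and layers, mt-Nd4l had log2 ratios of 1.21 in Tom- and 1.16 in Tom+, mt-Atp8 of 1.01 and 1.02, and mt-Atp6 of 0.95 and 0.92. Of the nuclear-coded members Atp5a1 had ratios of 0.97 and 0.98, Cox6c of 0.96 and 0.92, and Ndufa9 of 0.90 and 0.71. Atp5b had ratios of -0.20 and -0.095, and Cox5a of -0.15 and 0.0049. The alpha and beta subunits of the same catalytic head therefore moved apart here too.

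Cells were also ranked by their mitochondrial-coded share and cut into 10 equal groups in each library. The share that chose the groups ran from 0.722% to 2.23% in Tom- and from 0.826% to 2.77% in Tom+. The nuclear-coded share of all UMIs, which the ranking did not use, rose from 0.868% in the lowest to 1.14% in the highest group of Tom- and from 0.943% to 1.15% in Tom+. Median depth was 27388 UMIs in the lowest and 31165 in the highest group of Tom-. The groups also differed in place along the lobule, with Glul, a central marker, at 21.2 CPM in the lowest and 81.4 CPM in the highest group of Tom- and at 76.5 and 217 CPM in Tom+. The part of the lobule in the rise of the nuclear-coded share was not tested.

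Hepatocyte clusters differed in the same readout. The cluster with 14 central markers and Glul, Axin2 and Lgr5 among its leading genes held 1.57% mitochondrial-coded UMIs in Tom- and 1.83% in Tom+. A second cluster with 15 central markers had Anxa2, Snhg11, Cyp7a1, Gstm3, Abcc4 and Ces2c among its leading genes. It was 97.8% Tom+ and held 1.42% in its 1535 Tom+ cells and 1.67% in its 35 Tom- cells. A portal-like cluster that was 93.2% Tom+ held 1.398% in its 508 Tom+ cells and 1.43% in its 37 Tom- cells, so in both of these clusters the Tom- share was the higher one. These few Tom- cells were also shallower, with medians of 20395 and 17133 UMIs against 35005 and 35871 in the Tom+ cells. The part of depth in this order was not tested. Whether clusters made almost only of Tom+ cells reflect that library or a cell state was not tested. The paper reports a central cluster enriched in Tom+ cells and proposes that it has transcriptional traits of its own. It measured genes raised in that cluster, Anxa2 among them, by qPCR in sorted Tom+ and Tom- hepatocytes. Without clusters made almost only of Tom+ cells, the Tom+ over Tom- log2 ratio of the mitochondrial-coded sum was 0.26. Clusters left out for few genes alone held 4940 Tom- and 425 Tom+ profiles, with endothelial marker sums of 159.9 and 171.6 CPM. Their 6 hepatocyte genes summed to 148458 and 162596 CPM, against 144772 and 138329 CPM in the kept hepatocytes. Their mitochondrial-coded shares were 1.55% and 1.63%. With these clusters kept, 11 members were called higher in Tom+, where 1.71% of all genes were called in either direction. The log2 ratio of the mitochondrial-coded sum was then 0.17.

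Many subunits of complex IV have tissue forms, and the files held both forms of most. The counts of each form are given side by side, with no comparison of their levels. Cox4i1 stood at 61.4 and 78.7 CPM, and its low-oxygen form Cox4i2 had 26 UMIs in Tom- and 14 in Tom+. Cox6a1 stood at 150 and 160 CPM, and the muscle form Cox6a2 had 4 and 8 UMIs. Cox8a had 20 and 26 UMIs of Cox8b beside it, and Cox8c had 1 and 0. Cox7b stood at 176 and 183 CPM, and Cox7b2 had 0 UMIs in both, which allows up to 0.0077 CPM in Tom- and 0.0073 CPM in Tom+ as the limit of 3 counts per library.

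Of the members under the minimum level, Cox7a1, the heart and muscle form of subunit 7a, had 1516 and 1176 UMIs and stood at 5.19 CPM in layer 1 and 1.91 CPM in layer 5 of Tom-, and at 4.62 and 2.04 CPM in Tom+, log2 ratios of -1.43 and -1.18. Its general form Cox7a2 went the other way, from 24.1 to 30.9 CPM in Tom- and from 29.9 to 32.6 CPM in Tom+. Cox7a2l, a relative with a part in the joining of complexes III and IV, stood at 174.6 CPM in Tom- and 163.6 CPM in Tom+. Cox6b2, the testis form of subunit 6b, had 133 and 475 UMIs and stood at 0.173 and 0.968 CPM in Tom- and 0.186 and 2.25 CPM in Tom+ from layer 1 to layer 5. Its general form Cox6b1 stood at 125 and 130 CPM in Tom- and 141 and 135 CPM in Tom+. Ndufa4l2, a hypoxia-responsive relative of Ndufa4, had 745 and 773 UMIs, at 1.89 and 1.83 CPM, and central over portal log2 ratios of -0.25 in Tom- and 0.26 in Tom+, both with counting intervals that include 0. Ndufa4 itself stood at 127 and 127 CPM, and is counted with complex I here by its symbol although it is found in complex IV. Related genes can share probe targets, so the counts of forms with few UMIs are uncertain. Ndufb3 had 1155 and 1628 UMIs, Ndufaf5 had 3102 and 3401, Ndufaf7 had 3768 and 4001 and Atp5s had 2427 and 2842. Of Atp5g1 to Atp5g3, the forms of the ring subunit, Atp5g3 was in the files, at 205 and 194 CPM.

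Other mitochondrial genes were taken from lists of the pathway around the chain. Against the 2.02% of all genes called higher in Tom+ and 0.307% lower, 0 of 11 biogenesis regulators tested were called between the libraries, with Esrra highest at a log2 ratio of 0.20. Ppargc1a, a coactivator that drives mitochondrial biogenesis, stood at 33.3 CPM in Tom- and 30.1 CPM in Tom+, and was called lower centrally with log2 ratios of -1.13 and -1.002. Of 33 genes for upkeep and transcription of mitochondrial DNA 0 were called, with Polrmt, the mitochondrial RNA polymerase, at 10.8 and 12.99 CPM. Of 17 electron carriers, 23 import genes, 11 mitochondrial antioxidants and 16 hypoxia genes, 0 were called between the libraries in each list. Their highest and lowest log2 ratios were 0.17 for Etfb and -0.12 for Coq8a, 0.16 for Tomm20 and -0.17 for Timm22, 0.19 for Glrx5 and -0.17 for Nnt, and 0.15 for Bnip3 and -0.20 for Hif1a, in that order of lists. Of 44 further assembly factors 1 was called higher in Tom+, Dmac1, at 7.65 and 11.4 CPM. Of 18 stress response genes 2 were called higher, with Hspe1, a chaperonin, highest at 39.1 and 49.9 CPM, and of 24 fission, fusion and mitophagy genes 1 was called, Phb. Lowest of their lists were Sco2 at -0.16, Chac1 at -0.24, Fundc1 at -0.16 and Twnk at -0.11. Genes of the mitochondrial ribosome were not used here.

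Promoters of the nuclear-coded members were read from RefSeq (GRCm38.p6), in windows of 250 bases before to 50 after the annotated start. Windows were found for 71 of the 89 members. Motifs were searched on both strands: GCATGCGC for NRF1, CCGGAAG for GABPA, ANATGGCG for YY1 and AAGGTCA for ERR alpha, factors known to control respiratory chain genes. The letters of 1 motif are not part of another. A motif of this list was present in 40 of 71 members, or 56.3%, and in 20.3% of all 27025 genes with a window. NRF1 letters were present in 15.5% of members and 3.05% of all genes, GABPA letters in 23.9% and 9.93%, YY1 letters in 21.1% and 4.23%, and ERR alpha letters in 11.3% and 5.38%. Among the 9 members called higher in Tom+ that have a window, 5 held a motif, against 35 of the 62 others. A match is a description of the letters and not a site.

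The promoters with the most opposite courses with depth are shown 5′ to 3′ on the gene's strand with motif matches in capitals, for members with a single window. Atp5a1 and Cox6c, which fell most with depth among nuclear-coded members, had no window. Of the 9 nuclear-coded members called lower in deep cells, 5 had a window. Ndufs6 (chr13:73328433-73328732, minus strand) and Ndufa9 (chr6:126849095-126849394, minus strand) were lower in deep cells. Cox5a (chr9:57520982-57521281, plus strand) and Atp5j2 (chr5:145191492-145191791, minus strand) were higher.
Ndufs6: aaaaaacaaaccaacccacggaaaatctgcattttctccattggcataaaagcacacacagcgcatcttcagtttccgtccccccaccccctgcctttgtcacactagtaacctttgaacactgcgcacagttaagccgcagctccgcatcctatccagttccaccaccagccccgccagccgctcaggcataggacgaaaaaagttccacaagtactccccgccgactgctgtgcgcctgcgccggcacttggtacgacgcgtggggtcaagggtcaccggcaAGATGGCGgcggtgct
Ndufa9: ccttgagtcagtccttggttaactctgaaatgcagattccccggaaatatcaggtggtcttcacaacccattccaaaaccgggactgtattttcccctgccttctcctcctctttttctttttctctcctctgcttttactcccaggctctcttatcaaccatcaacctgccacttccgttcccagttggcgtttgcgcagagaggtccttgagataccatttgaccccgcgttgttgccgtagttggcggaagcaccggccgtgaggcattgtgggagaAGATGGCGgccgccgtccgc
Cox5a: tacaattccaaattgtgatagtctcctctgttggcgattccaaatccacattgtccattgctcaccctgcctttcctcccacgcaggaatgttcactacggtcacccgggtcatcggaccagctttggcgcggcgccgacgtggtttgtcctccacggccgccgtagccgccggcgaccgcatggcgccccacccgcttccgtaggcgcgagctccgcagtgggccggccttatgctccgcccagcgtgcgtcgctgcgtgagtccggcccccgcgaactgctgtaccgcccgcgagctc
Atp5j2: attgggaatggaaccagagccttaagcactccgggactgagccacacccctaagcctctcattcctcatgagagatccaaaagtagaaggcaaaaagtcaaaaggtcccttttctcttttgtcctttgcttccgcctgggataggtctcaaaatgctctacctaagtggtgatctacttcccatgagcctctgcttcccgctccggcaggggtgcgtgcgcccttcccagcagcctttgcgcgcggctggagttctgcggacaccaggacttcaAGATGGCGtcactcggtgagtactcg
The YY1 letters were present close to the start of Ndufs6, Ndufa9 and Atp5j2, and none of the 4 motifs was found in the Cox5a window. Members of opposite course therefore shared a motif.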

How the data were processed

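The libraries of fixed, sorted hepatocytes, Tom- and Tom+, were read with 10x Flex probes. The authors deposited raw UMI counts per gene and barcode, made with Cell Ranger 7.2.0 against mm10 per the submitters' processing notes, and nothing was normalized. Barcodes with a mitochondrial fraction of at most 0.05, 2000 to 10000 genes and at most 100000 UMIs were kept, after the study's methods. Cells were clustered (30 principal components, 20 neighbours, Leiden resolution 0.8) on variable genes without the respiratory chain members, so no member set a cluster. Clusters with median genes under 0.75 of the median of all kept barcodes were left out. So were clusters in which a marker of immune, stellate or endothelial cells (Ptprc, Dcn, Pecam1) reached 2.5 times its level in the median cluster. The rest were taken as hepatocytes. No doublet caller was run, and doublets were limited by the UMI maximum and by an alternative without the 10% of profiles with most markers of other cells.

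Counts were summed per library, layer and depth bin and divided by the total. A log2 ratio used 0.5 UMI as pseudocount, and a call needed 1.25-fold, 10 CPM in either group and 20 UMIs over both, with both libraries in the same direction for lobule and depth. Layers were score ranges from markers of at least 20 CPM. Genes were named by a rule: every mitochondrial-coded member, the highest and lowest nuclear-coded member of each complex in each comparison, the isoform pairs, and the highest and lowest gene of each other list. Called members and those under the minimum level that fall outside the rule were named after their values were seen. The TCA cycle list was also counted and is not reported here, for a reason unrelated to its values. Members and lists were chosen with earlier results of these data known. With 1 library per group no test was made, and no p-value is given. The Tom+ against Tom- calls were run on simulated counts with known changes, all larger than 1.25-fold. That simulation held counting error only. It cannot speak for spread between cells, library effects, or the lobule and depth calls. Alternatives were other filters, totals, scores, folds and thinning to 5000 UMIs. Python 3.11.15, numpy 2.4.6, pandas 2.3.3, scipy 1.17.1, scikit-learn 1.9.0 and leidenalg 0.10.2 were used.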

Additional observations from a re-analysis of the deposited data

Results flagged for a closer look

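On the plain CPM scale, several values had opposite signs in the libraries, with counting intervals of the 2 libraries apart, though the difference was not tested. Deep over shallow, the mitochondrial-coded sum had log2 ratios of -0.072 in Tom- and 0.052 in Tom+, a difference of 0.12. mt-Atp8 had -0.48 and 0.099, a difference of 0.58, mt-Co2 -0.16 and 0.17, a difference of 0.33, and mt-Co3 -0.21 and 0.11, a difference of 0.32. Uqcr11 had -0.18 and 0.10, a difference of 0.29, and Cox6a1 -0.12 and 0.18, a difference of 0.29. Along the lobule, Cox7b had 0.18 in Tom- and -0.093 in Tom+, a difference of -0.28, and Cox6b1 had 0.054 and -0.055, a difference of -0.11. Relative to the median gene, which moved by -0.26 in Tom- and -0.24 in Tom+ with depth and by 0.18 and 0.23 along the lobule, mt-Atp8 was the one of these values that kept opposite signs.

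Mitochondrial-coded UMIs were also measured in profiles outside the hepatocyte set. Profiles under the gene minimum held 2.14% in Tom- and 2.24% in Tom+. They were mixed with other cells, with immune marker sums of 1031 and 1304 CPM against 52.2 and 49.0 CPM in the hepatocytes. Those over the UMI maximum held 1.04% and 1.37%. Clusters left out for few genes alone held 1.55% and 1.63%, and those left out for other-cell markers alone held 1.25% and 1.58%. The profiles over the mitochondrial limit, which were chosen by this share, went the other way, with 7.37% in 56 Tom- and 6.41% in 52 Tom+ profiles.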

How the results depend on the processing

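No called member changed sign under any alternative. With barcodes of both libraries left out, an alternative chosen after seeing the data, 16, 14 and 26 members were called between the libraries, along the lobule and by depth. Of all genes, 2.31%, 32.8% and 31.4% were called in these comparisons, in the same order. No paired analysis was possible because 1 library stands for each group. The cause of the changes below was not tested.

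For Tom+ over Tom-, the mitochondrial-coded log2 ratio was 0.218 without the mitochondrial limit, 0.169 with few-gene clusters kept, 0.257 without clusters of 1 library, 0.213 without profiles with most other-cell markers, 0.219 with the total without mitochondrial-coded UMIs, 0.223 with size factors, 0.203 thinned, 0.223 over zone-like clusters, 0.232 with the score from 4 genes, 0.213 standardised over depth and 0.285 without layers. The nuclear-coded one was 0.0270 with few-gene clusters, 0.0386 with that total, 0.0424 with size factors, 0.0441 thinned, 0.0432 with 4 genes, 0.0330 over depth and 0.0489 without layers. Thinned to 5000 UMIs, 10 members were called, against 1.81% of all genes, and at 1.5-fold 3, against 0.243% of all genes.

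For central over portal, as the mean of both libraries, the mitochondrial-coded log2 ratio was 0.255 without the mitochondrial limit, 0.235 with few-gene clusters, 0.255 without clusters of 1 library, 0.249 without the other-cell profiles, 0.247 with that total, 0.0378 with size factors, 0.256 thinned, 0.302 over zone-like clusters, 0.163 with 4 genes and 0.263 over depth. The nuclear-coded one was 0.0458 without clusters of 1 library, 0.0446 with that total, -0.165 with size factors, 0.0515 thinned, 0.0522 over zone-like clusters, 0.0038 with 4 genes and 0.0664 over depth. With 4 genes 8 members were called, against 29.1% of all genes, and at 1.5-fold 1, against 13.8% of all genes.

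For deep over shallow, the mitochondrial-coded log2 ratio was -0.0329 without the mitochondrial limit, -0.131 with few-gene clusters, 0.0014 without clusters of 1 library, 0.0028 without the other-cell profiles, 0.244 with size factors, 0.0024 thinned, -0.0171 with 4 genes and -0.0505 without layers, against -0.010 as reported, so its direction was not stable. The nuclear-coded one was 0.0814 with few-gene clusters, 0.163 without the other-cell profiles, 0.408 with size factors and 0.142 without layers. With size factors 55 members were called, against 23.8% of all genes, and at 1.5-fold 7, against 8.36% of all genes.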
